A study of Mus musculus with 7 samples.

Results

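The 10 genes Gfap, Vim, Des, Nes, Synm, Nefl, Nefm, Nefh, Ina and Prph encode the intermediate filament proteins of glia, blood vessels and neurons. They were taken by symbol from the count files and are 10 of the 32531 genes listed there. All 10 were measured in all 7 libraries and passed the filter on low counts. Intermediate filaments are rope-like polymers of coiled-coil proteins that give a cell mechanical strength, and cell types differ in which subunits they make. In the brain, GFAP is the filament protein of astrocytes, vimentin is made in astrocytes, endothelium and other mesenchymal cells, desmin in vascular muscle and pericytes, and nestin in progenitors and in some vessel cells. Neurons assemble the neurofilament light, medium and heavy chains with alpha-internexin, and peripherin joins them mainly in neurons with peripheral axons.

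RNA came from the midbrain of untreated adult control mice of 1 line, Stard8-TRAP ES2342, so every library carries the same transgene. The transgene puts an EGFP-tagged ribosomal protein, Rpl10a, under Stard8 regulatory sequence, so the tag marks the cells in which that sequence is active. In TRAP, translating ribosome affinity purification, antibodies capture the tagged ribosomes and their RNA from the homogenate. The immunopurified RNA (IP) gave 3 libraries, numbered 1, 2 and 4, and the RNA left in the homogenate (unbound) gave 4, numbered 1 to 4. The labels do not say which libraries came from separate or pooled animals, so p-values measure only the spread between libraries. IP 3 was not analysed here.

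Libraries held 52052340 to 76114634 counts in genes, and 3 counts corresponded to 0.0376 to 0.0590 CPM (counts scaled to a common library size), which covers counting error only. Stard8 itself, which checks the labels, had a mean of 352 CPM over the IP libraries (SD 111) and of 4.23 CPM over the unbound ones (SD 0.569). The submitters describe the captured cells as neurons. All 16 pan-neuronal marker genes were lower in IP, and their summed level was 5107 to 9942 CPM in IP and 18597 to 25017 CPM in unbound. All 16 endothelial markers, all 14 pericyte and smooth muscle markers and all 14 microglia and macrophage markers were higher in IP. No marker of these 4 lists was at 0 in every library. Markers of dopaminergic neurons, a main neuron class of the midbrain, did not follow the pan-neuronal list: of 11, 1 was higher, 1 lower and 9 not called, with a median log2 fold change of -0.06. Their sum was 582 to 646 CPM in IP and 326 to 512 CPM in unbound, and the largest part in IP was the 1 higher gene, Aldh1a1, at 326 to 391 CPM in IP and 60.6 to 181 CPM in unbound. The captured RNA is called IP throughout.

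Of the 10 genes, 4 were higher in IP, Vim, Nes, Des and Gfap, and 5 were lower, Prph, Nefl, Nefh, Ina and Nefm. Synm was not called. Calls are at an adjusted p of at most 0.05 in edgeR's quasi-likelihood test over all genes, where 20.5% of the genes tested were higher and 18.9% were lower. The median log2 fold change was -0.34 over the 10 genes and -0.10 over all genes tested. The median of the 10 falls between Synm at 0.84 and Nefm at -1.51, so it describes no single gene. Every IP library lay above every unbound library for 4 of the 10 genes and below for another 4, which happened for 25.1% and 22.7% of all genes. The groups overlapped for Nefm and Synm. In bulk RNA, fewer cells of a type and less RNA per cell cannot be told apart. No lane label was shared by an IP and an unbound library, so lane and group cannot be told apart.

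**Figure D1:**
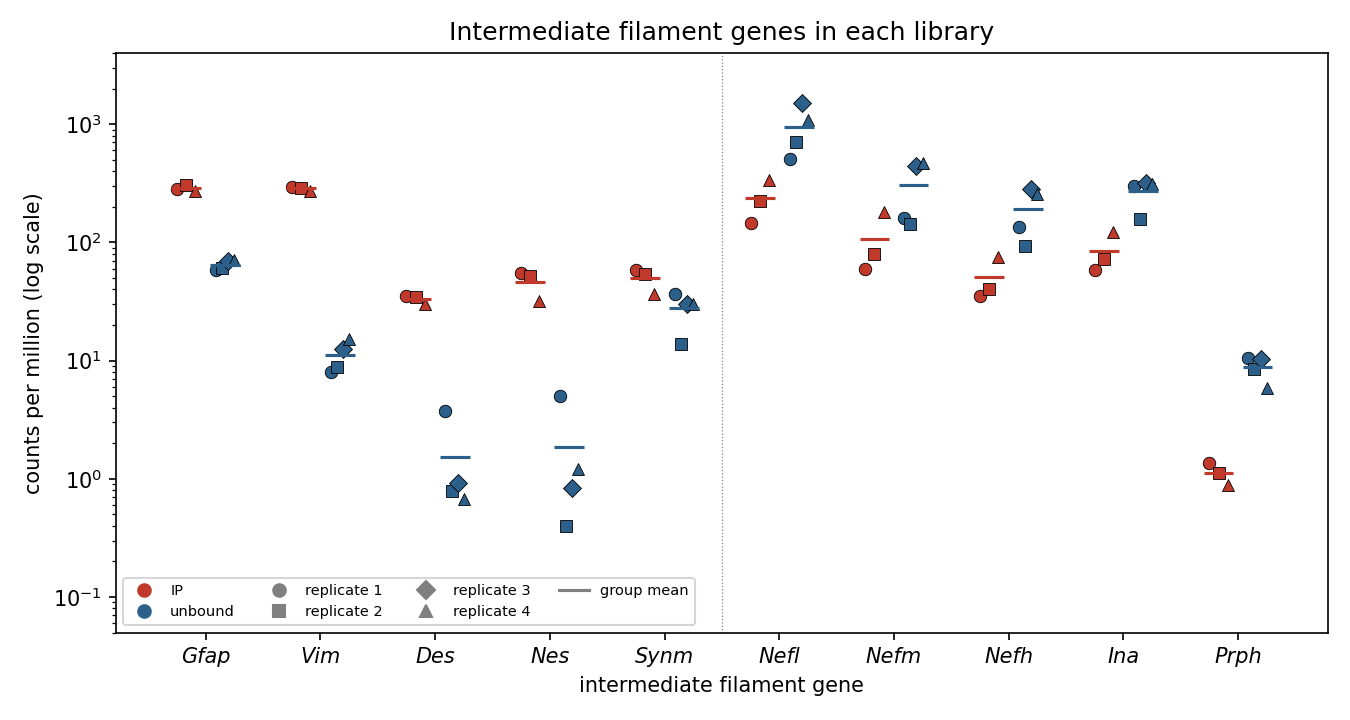
Level of each gene in CPM on a log axis, 1 point per library with the marker shape giving the replicate number and a line at the group mean. IP points lie above all unbound points for Gfap, Vim, Des and Nes and below them for Nefl, Nefh, Ina and Prph, and the groups overlap for Synm and Nefm.

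Gfap, Vim, Des and Prph belong to the same class, type III, whose proteins can form filaments on their own, yet 3 of them were higher in IP and 1 was lower. Their promoters are shown because they are the most related genes with opposite directions. Each line is the 250 bases before the RefSeq start of transcription (GRCm38.p6), written 5′ to 3′ on the gene's strand. Capitals mark TATAAA, the core of a TATA box, and GGGCGG, the core of a GC box, searched on both strands, so that a GC box on the other strand reads CCGCCC. The windows are chr11:102897201-102897450 on the minus strand for Gfap, and chr2:13574061-13574310, chr1:75360042-75360291 and chr15:99054924-99055173 on the plus strand for Vim, Des and Prph.
Gfap: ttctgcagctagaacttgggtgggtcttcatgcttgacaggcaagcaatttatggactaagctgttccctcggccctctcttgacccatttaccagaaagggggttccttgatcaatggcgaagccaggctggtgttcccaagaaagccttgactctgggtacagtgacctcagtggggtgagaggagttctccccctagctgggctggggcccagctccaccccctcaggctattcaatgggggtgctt
Vim: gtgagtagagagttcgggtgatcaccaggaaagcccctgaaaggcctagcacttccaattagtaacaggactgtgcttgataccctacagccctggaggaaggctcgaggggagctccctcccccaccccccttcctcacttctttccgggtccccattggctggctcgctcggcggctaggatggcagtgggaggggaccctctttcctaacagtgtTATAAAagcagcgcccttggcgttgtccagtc
Des: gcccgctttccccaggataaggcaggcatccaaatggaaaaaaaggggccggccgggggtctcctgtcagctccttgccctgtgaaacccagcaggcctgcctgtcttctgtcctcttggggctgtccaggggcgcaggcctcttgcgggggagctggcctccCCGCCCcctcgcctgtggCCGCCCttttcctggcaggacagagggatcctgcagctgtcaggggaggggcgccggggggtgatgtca
Prph: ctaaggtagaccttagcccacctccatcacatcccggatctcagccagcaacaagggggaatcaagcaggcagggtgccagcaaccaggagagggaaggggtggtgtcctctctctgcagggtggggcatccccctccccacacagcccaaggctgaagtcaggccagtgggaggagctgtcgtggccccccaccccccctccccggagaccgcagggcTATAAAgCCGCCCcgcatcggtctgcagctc
TATAAA began at position -32 of Vim and at -31 of Prph, counted from the RefSeq start of transcription. Vim was higher in IP and Prph was lower, and the part of this match in either value was not tested. GGGCGG was found on the other strand of Des at -87 and -69 and of Prph at -24. Gfap held neither string in this window. By the GENCODE M21 annotation used below, Gfap and Vim extend upstream past these RefSeq starts. Bases before those further starts were not searched. Of 32851 RefSeq promoters of this length, 12.4% held TATAAA and 32.7% held GGGCGG on either strand. These are matches of letters and not measured sites.

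Vim encodes vimentin and lies on chromosome 2 from 13573927 to 13582826 on the plus strand (GRCm38, the build named mm10, with GENCODE M21 annotation, for this and the following positions). It measured 296, 290 and 272 CPM in IP 1, 2 and 4 and 7.96, 8.88, 12.4 and 15.2 CPM in unbound 1 to 4. The IP libraries were close to each other and far above all unbound libraries. Its log2 fold change was 4.69 ± 0.29 (standard error, as for all fold changes here), with an adjusted p of 1.51e-06 in edgeR. Only 3.27% of the genes tested had a higher log2 fold change.

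Des encodes desmin, the muscle filament subunit, on chromosome 1 from 75360329 to 75368579. It measured 34.9, 34.2 and 30.3 CPM in IP and 3.71, 0.790, 0.930 and 0.671 CPM in unbound. Unbound 1, with 296 counts, stood above the other unbound libraries, which had 38 to 49. The log2 fold change was 4.42 ± 0.58 (edgeR adjusted p = 0.000201) and 5.37 without unbound 1.

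Nes encodes nestin, a type IV subunit that assembles with vimentin, on chromosome 3 from 87971078 to 87980451. It measured 55.2, 51.5 and 32.0 CPM in IP and 5.04, 0.395, 0.835 and 1.22 CPM in unbound. Unbound 1 was again the highest of its group, with 402 counts where the others had 23 to 69. The log2 fold change was 4.61 ± 0.73 (edgeR adjusted p = 0.000667) and 5.82 without unbound 1. The summed levels of the endothelial and of the pericyte and smooth muscle markers were lowest in unbound 1, at 52.0 and 48.1 CPM, but single markers differed in order. Of 16 endothelial markers 3 were highest of the unbound libraries in unbound 1 and 8 were lowest there. Among these, Abcb1a, chosen after its values were seen, was 3.20 CPM in unbound 1 and 0.0859 to 1.01 CPM in the others. Of 14 pericyte and smooth muscle markers 2 were highest and 9 lowest in unbound 1.

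Gfap lies on chromosome 11 from 102887336 to 102900912 on the minus strand. It measured 281, 306 and 271 CPM in IP and 58.8, 61.0, 69.4 and 70.8 CPM in unbound. Both groups were tight and did not overlap, at 286 ± 17.9 (SD, n = 3) and 65.0 ± 5.99 CPM (SD, n = 4). IP exceeded unbound by 2.14 ± 0.21 on the log2 scale (edgeR adjusted p = 2.26e-05). Of 16 astrocyte markers 10 were higher (3 within the index set of IP 1, IP 2, unbound 1 and unbound 2), with a median log2 fold change of 1.05 and a maximum of 1.30.

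Synm encodes synemin, a large subunit that links desmin and vimentin filaments to membrane complexes, on chromosome 7 from 67730160 to 67759742. It measured 58.4, 54.0 and 36.9 CPM in IP and 36.9, 13.9, 30.0 and 30.4 CPM in unbound. IP 4 and unbound 1 had the same level to the digits printed, and the log2 fold change of 0.84 ± 0.32 did not pass (edgeR adjusted p = 0.0598). It passed when unbound 1, unbound 2 or IP 4 was left out (adjusted p = 0.0387, 0.0483 and 0.0464) and with limma voom (adjusted p = 0.0423). The value without unbound 2 was 0.62 and without IP 4 it was 1.02. Synm and the gene Gm45102 on the opposite strand share 426 exonic bases, but Gm45102 was not among the genes counted. Ttc23, also on the opposite strand, was counted, with at most 1455 counts in a library, and shares 84 exonic bases with Synm.

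The cell type lists that these 5 genes belong with moved by different amounts. The endothelial sum was 2576 to 3402 CPM in IP and 52.0 to 74.8 CPM in unbound, with a median log2 fold change of 6.93. The pericyte and smooth muscle sum was 4455 to 6264 CPM in IP and 48.1 to 64.7 CPM in unbound, with a median of 6.48. Vim, Des and Nes thus had smaller fold changes than the median of either vessel list. The astrocyte sum was 5166 to 5993 CPM in IP and 2623 to 3837 CPM in unbound. Fibroblast and meningeal markers were higher for 8 of 11 genes and ependymal and choroid plexus markers for 5 of 10, or 2 without IP 1 and 3 without unbound 4. The part of any of these cell types in the filament values was not tested.

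Nefl encodes the neurofilament light chain, the subunit that the other chains need to form a filament, on chromosome 14 from 68083863 to 68089095. It measured 146, 223 and 338 CPM in IP and 503, 701, 1512 and 1085 CPM in unbound. Every IP library was below every unbound library, but each group spread widely, at 236 ± 96.3 (SD, n = 3) and 950 ± 446 CPM (SD, n = 4). Its fold change was -2.01 ± 0.43 on the log2 scale (edgeR adjusted p = 0.00410).

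Nefm, the medium chain, lies beside Nefl on the opposite strand, from 68082590 to 68124846. It measured 59.4, 79.4 and 182 CPM in IP and 161, 144, 444 and 469 CPM in unbound. IP 4 was above unbound 1 and unbound 2, so the groups overlapped. For this gene the log2 fold change was -1.51 ± 0.52 (edgeR adjusted p = 0.0403). The call was lost without IP 1 (-1.20, adjusted p = 0.143), IP 2 (-1.32, 0.147), unbound 3 (-1.28, 0.0962) or unbound 4 (-1.23, 0.101). Without IP 4 the log2 fold change was -2.13, with an adjusted p of 0.0146. The annotated exons of Nefl and Nefm share 1108 bases, 32.8% of the exonic length of Nefl and 19.2% of that of Nefm. Reads that matched more than 1 gene made up 1.55% ± 0.107 of reads in IP (SD, n = 3) and 9.95% ± 1.89 in unbound (SD, n = 4) and were not counted, so reads in these shared bases may be missing.

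Nefh, the heavy chain, whose long phosphorylated tail projects from the filament, lies on chromosome 11 from 4938754 to 4948064. It measured 35.3, 40.7 and 75.5 CPM in IP and 135, 93.2, 285 and 254 CPM in unbound. The groups did not overlap, and the log2 fold change was -1.93 ± 0.43 (edgeR adjusted p = 0.00546).

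Ina encodes alpha-internexin, a neuronal subunit that is made early in development and co-assembles with the neurofilament chains, on chromosome 19 from 47014698 to 47025327. It measured 57.9, 71.7 and 122 CPM in IP and 297, 158, 318 and 313 CPM in unbound. Unbound 2 stood below the other unbound libraries, which were close together. The log2 fold change was -1.70 ± 0.34 (edgeR adjusted p = 0.00314). Ina shares 456 exonic bases with Nt5c2 on the opposite strand.

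Prph encodes peripherin and lies on chromosome 15 from 99055174 to 99058978. It measured 1.35, 1.12 and 0.884 CPM in IP and 10.4, 8.56, 10.3 and 5.84 CPM in unbound. These are 45 to 101 counts in IP and 331 to 833 in unbound, well above the floor of 3 counts. The log2 fold change of -2.97 ± 0.40 (edgeR adjusted p = 0.000219) was the lowest of the 10 genes, and 2.67% of all genes tested had a lower one. Of 11 markers of motor and peripheral projecting neurons 6 were lower, with a summed level of 15.2 to 23.4 CPM in IP and 72.6 to 99.8 CPM in unbound, and 3 were lower without IP 2.

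The pan-neuronal list had a median log2 fold change of -1.70, near the values of Nefl, Nefm, Nefh and Ina. Without IP 2, 10 of its 16 genes were lower. Oligodendrocyte markers were lower in IP for 11 of 12 genes. The part of cell makeup in the neuronal filament values was not tested.

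**Figure D2:**
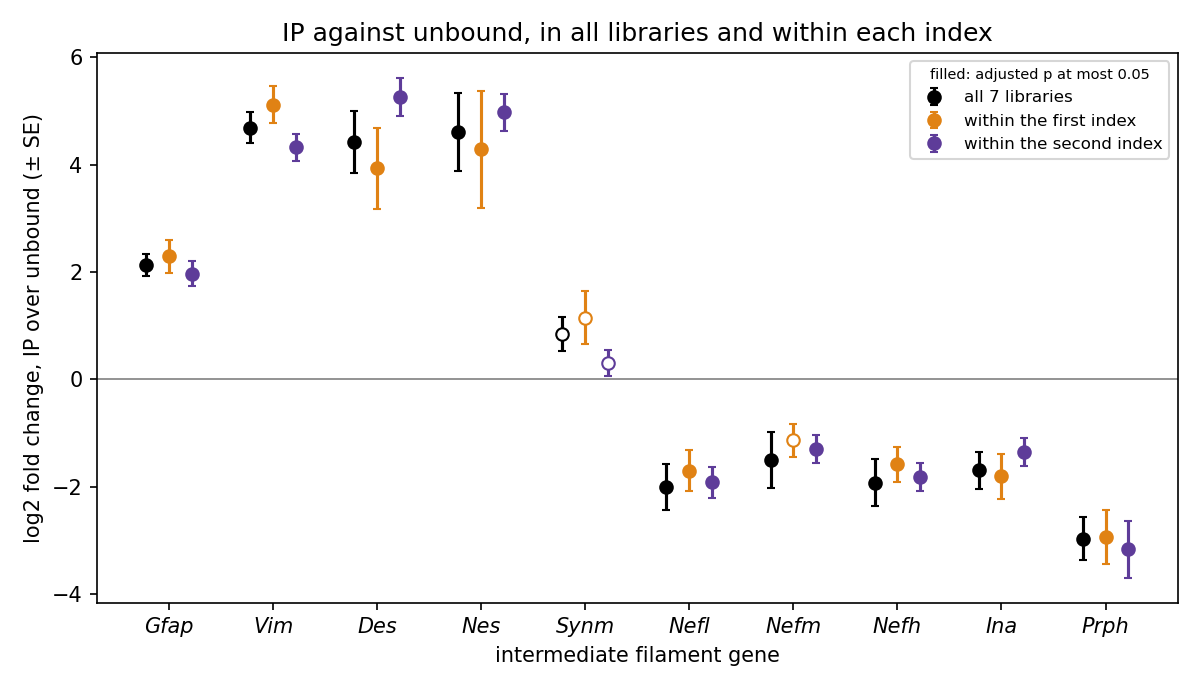
Log2 fold change of IP over unbound for each gene with its standard error, over all 7 libraries and within each of the 2 index sets (first: IP 1, IP 2, unbound 1, unbound 2; second: IP 4, unbound 3, unbound 4). Filled points had an adjusted p of at most 0.05, and the sign of each gene was the same in all 3 fits. The second set has a single IP library.

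Levels of different genes were compared per kilobase of annotated exon. This length includes the bases that Nefl and Nefm share and those that Ina shares with Nt5c2. It also includes 220 bases that Des shares with Gm15179 on the opposite strand and 84 that Synm shares with Ttc23. Reads there may be missing, so the levels and shares of these genes may be too low. In IP, Nefl was at 69.7 ± 28.5, Gfap at 67.7 ± 4.24 and Vim at 60.3 ± 2.57 CPM per kilobase (SD, n = 3). Nefl did not differ from Gfap and Vim beyond its own spread, and Gfap was above Vim in each IP library. Ina followed at 25.8, Nefm at 18.5, Nefh at 12.6, Des at 8.82, Nes at 7.21 and Synm at 6.27 CPM per kilobase. The ranges of neighbours in this order overlapped between libraries. Within each IP library, though, Ina was above Nefm and Nefm above Nefh, and Des was above Nes and Nes above Synm. Des was above Nefh in IP 1 and below it in IP 2 and 4. Prph, at 0.558 CPM per kilobase, was far below the rest. In unbound the order differed. Nefl led at 281 ± 132 CPM per kilobase (SD, n = 4), above Ina at 83.8, Nefm at 52.7 and Nefh at 48.0. The ranges of these last 3 overlapped, but Ina was above Nefm and Nefh in each unbound library. Gfap was at 15.4, Prph at 4.40, Synm at 3.51 and Vim at 2.34 CPM per kilobase, with Prph, Synm and Vim overlapping as neighbours, and Des at 0.406 and Nes at 0.292 were lowest.

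On this per-length scale Gfap, Vim, Des, Nes and Synm together made up 65.5%, 58.4% and 42.5% of the 10 genes in IP 1, 2 and 4. They made up 6.69%, 5.61%, 3.22% and 4.10% in unbound 1 to 4. The neuronal genes made up the rest, 44.5% ± 11.8 in IP (SD, n = 3) and 95.1% ± 1.55 in unbound (SD, n = 4). The neuronal genes thus held nearly all of this sum in unbound, and both sets held large shares in IP. Among Nefl, Nefm, Nefh and Ina alone, Nefl took 53.2% to 58.9% in IP and 49.2% to 68.1% in unbound, which overlap.

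**Figure D3:**
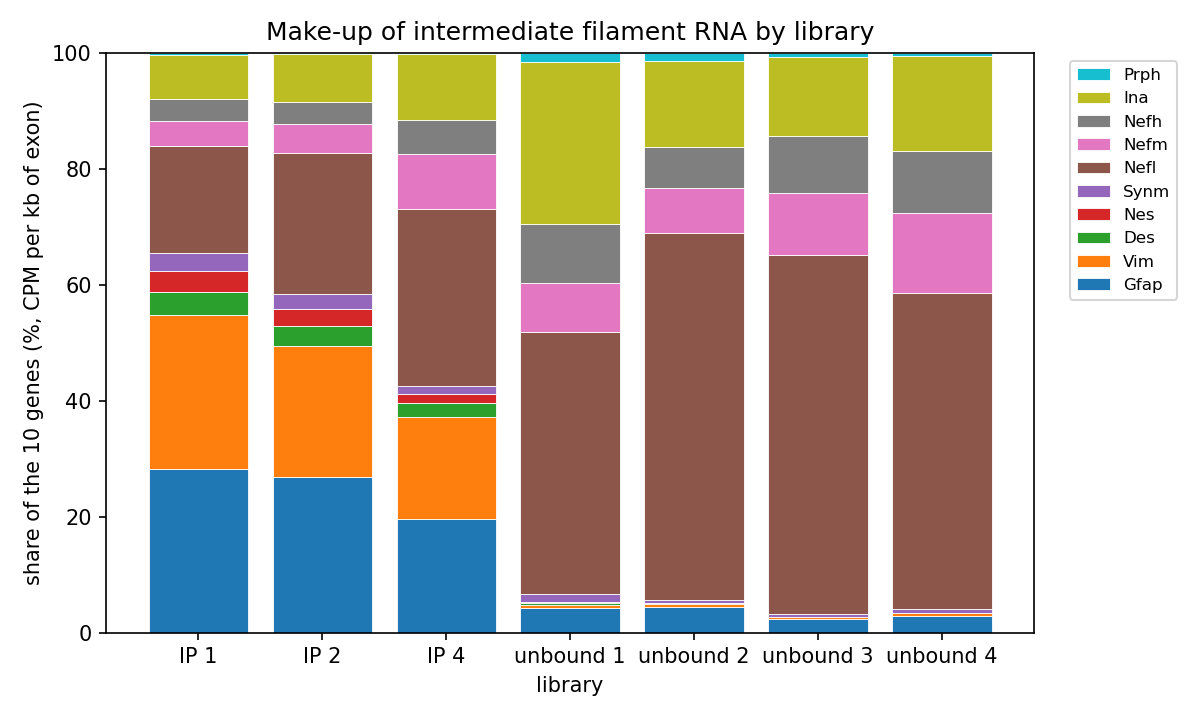
Share of each of the 10 genes in their summed level (CPM per kilobase of exon), in percent, as 1 stacked bar per library. Gfap, Vim, Des, Nes and Synm make up 42.5% to 65.5% of the IP bars and 3.22% to 6.69% of the unbound bars.

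Ratios within a library do not depend on how libraries are scaled. Of 18 ratios of CPM, between 2 of the genes or of a gene to the geometric mean of its marker list, 7 did not overlap between the groups. None had an adjusted p of at most 0.05 in the 2-sided exact permutation test, whose smallest p with 3 and 4 libraries is 0.0286 before adjustment. The 5 ratios at that p had an adjusted p of 0.103.

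Vim over Gfap was 1.05, 0.950 and 1.01 in IP and 0.135, 0.146, 0.179 and 0.215 in unbound, a 6.04-fold difference at the smallest exact p. Synm over Vim was 0.198, 0.186 and 0.135 in IP and between 1.57 and 4.64 in unbound. Synm over the pericyte and smooth muscle markers differed most, at 0.214 to 0.314 in IP and 52.2, 6.71, 12.4 and 9.93 in unbound 1 to 4. Des over the same list was 0.176 to 0.198 in IP and 5.25, 0.381, 0.383 and 0.219 in unbound 1 to 4. Nes over the endothelial markers was 0.298 to 0.436 in IP and 7.29, 0.451, 0.589 and 0.735 in unbound 1 to 4. Unbound 1 was thus far above the other unbound libraries in these ratios. Without it the log2 difference went from -5.71 to -5.09 for Synm, from -1.78 to -0.77 for Des and from -1.51 to -0.60 for Nes. Gfap over the astrocyte markers was 2.09, 2.19 and 1.66 in IP and 0.755, 0.920, 0.809 and 0.922 in unbound, 2.32-fold higher in IP. Gfap was thus further apart between the groups than the astrocyte list as a whole. Vim over the endothelial markers was 2.33 to 2.54 in IP and 8.76 to 11.5 in unbound, a log2 difference of -2.01 that was -0.88 when the list was summed instead.

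Relative to the pan-neuronal markers, all 5 neuronal genes overlapped between the groups. Nefl over that list was 1.06, 1.55 and 1.25 in IP and 0.901, 1.14, 2.50 and 1.73 in unbound (exact permutation p = 0.686). Ina over the list was 0.420, 0.498 and 0.450 in IP and 0.533, 0.257, 0.526 and 0.499 in unbound (exact permutation p = 1). The exact permutation p was 0.571 for Nefm, 0.971 for Nefh and 0.0857 for Prph over the same list. A p that misses the threshold does not show that these ratios are equal.

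The libraries carried 2 index sequences, with IP 1, IP 2, unbound 1 and unbound 2 in the first set and IP 4, unbound 3 and unbound 4 in the second. The sets thus split the libraries by replicate number, so the index and whatever else differed between these replicates cannot be told apart. Within the first set 4 of the 10 genes were higher and 4 lower, against 12.4% and 9.34% of all genes, and Nefm was not called (-1.14 ± 0.32, edgeR adjusted p = 0.0508). The second set has 1 IP library, and its p-values assume that this library varies like the unbound ones, so its calls (4 higher and 5 lower, against 21.4% and 17.6% of all genes) are no check by replicates. The log2 fold changes there had the same sign as over all libraries, from -3.17 for Prph to 5.26 for Des.

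Nefm, Nefh, Nefl and Ina were higher in the second set than in the first within both groups. For Ina in unbound the levels were 318 and 313 CPM against 297 and 158. Nefm was 182 CPM in IP 4 against 59.4 and 79.4 in the other IP libraries, and 444 and 469 CPM in unbound 3 and 4 against 161 and 144 in unbound 1 and 2. This comparison was chosen after the values were seen. With group in the model, the log2 difference of the second set from the first was 1.504 ± 0.21 for Nefm, 1.14 ± 0.22 for Nefh, 1.02 ± 0.26 for Nefl and 0.65 ± 0.26 for Ina. In edgeR the adjusted p was 0.201, 0.254, 0.323 and 0.396. The test called 0% of genes higher and 0% lower, while 2017 genes had an unadjusted p under 0.05, and Nefm ranked 3 of 17654 by p.

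DESeq2 with the same model called 0.942% of genes higher in the second set and 0.664% lower. These included Nefm (adjusted p = 1.11e-07), Nefh (0.00195) and Nefl (0.0250) and not Ina (0.304). The 2 tools thus differ on whether the difference passes. The 39 Hox genes, which mark hindbrain and spinal cord and which were added after the values were seen, summed to 40.4 and 21.6 CPM in unbound 3 and 4 and to 2.78 and 2.01 CPM in unbound 1 and 2. Their sum was 2.01, 3.82 and 7.53 CPM in IP 1, 2 and 4. The pan-neuronal sum was 9942 CPM in IP 4 against 5127 and 5107 in IP 1 and 2. In unbound it was 21995 and 25017 CPM in the second set and 18597 and 21201 CPM in the first. The part of either in the neurofilament values was not tested. Each lane label of the unbound libraries held 1 library of each set.

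**Figure D4:**
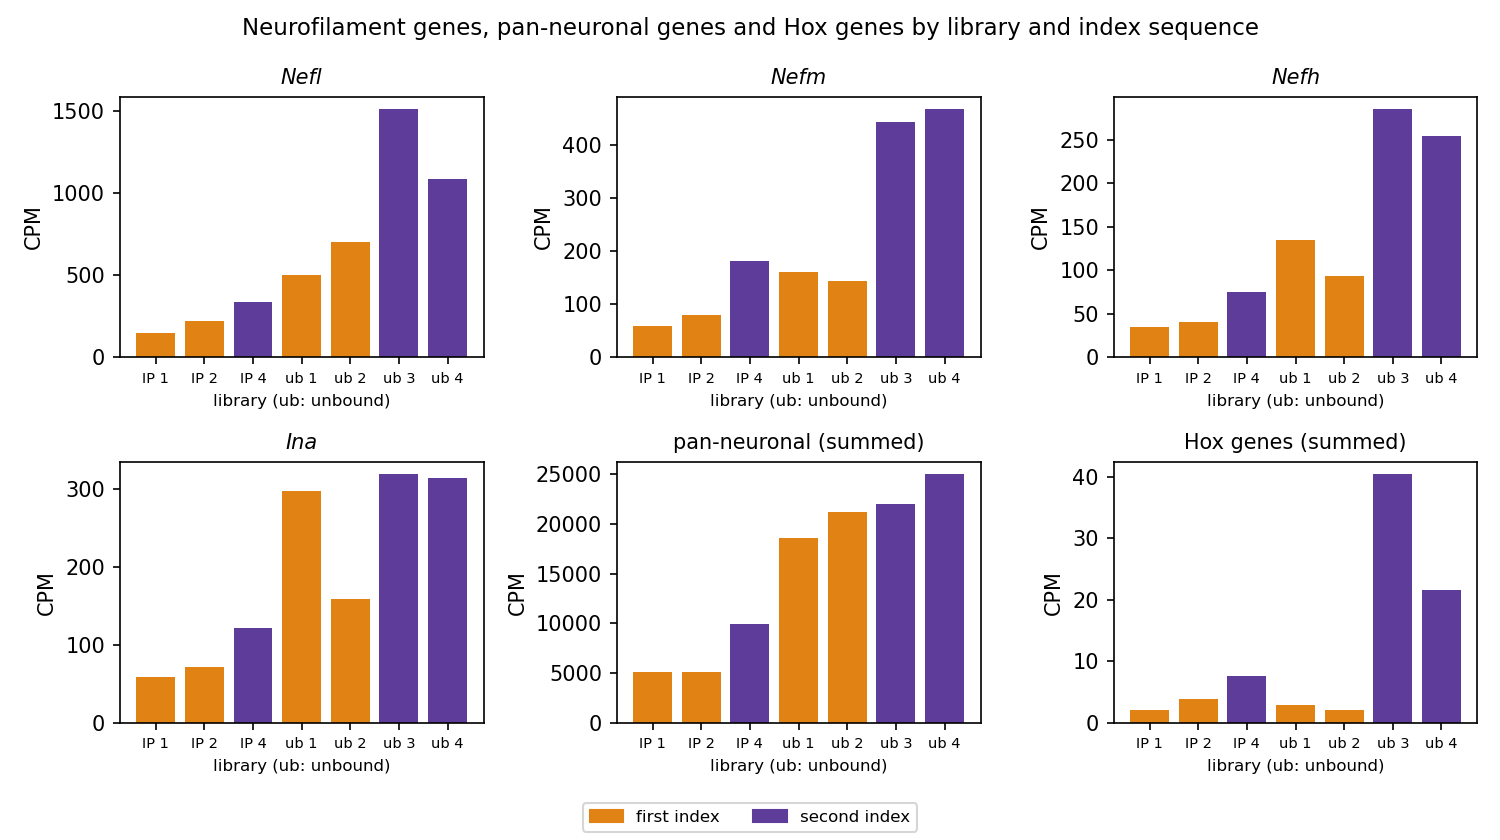
Bars give CPM of Nefl, Nefm, Nefh and Ina and the summed CPM of the pan-neuronal markers and the Hox genes in each library, coloured by index set (first: IP 1, IP 2, unbound 1, unbound 2; second: IP 4, unbound 3, unbound 4). Nefm was 182 CPM in IP 4 and 444 and 469 CPM in unbound 3 and 4, above the first set of the same group.

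Genes that work with filaments were read from lists, whose counts stand beside the 20.5% of all genes that were higher and the 18.9% that were lower. Counts near these shares are no result about a list. Those named below beyond the smallest p and the most abundant member of a list were chosen after their values were seen. Of 14 other filament genes tested, 2 were higher and 3 lower, which is near those shares. Krt222, a keratin-like gene, was 31.8, 41.8 and 57.4 CPM in IP and 161 to 213 CPM in unbound, with a log2 fold change of -2.06 ± 0.27. Lmna, which encodes the nuclear lamins A and C, had 1.19 ± 0.29 (edgeR adjusted p = 0.00850). Its adjusted p in edgeR was 0.0520 without IP 1 and 0.0872 within the first index set.

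Plakins and membrane anchors tie filaments to junctions and to the cell surface, and 5 of 15 were higher and 2 lower. Dmd, which encodes dystrophin, was 309, 335 and 302 CPM in IP and 113, 85.5, 95.9 and 107 CPM in unbound, with a log2 fold change of 1.65 ± 0.21. Its relative Utrn had 2.13 ± 0.27. Ank2, the most abundant of the list, had a log2 fold change of -0.11 and did not pass. The 2 lower genes were Ank1 and Itgb4, and both lost their calls without IP 2. Itgb4 also lost its call without IP 1, without unbound 3 and within the first index set.

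Small heat shock chaperones bind filament proteins and limit their aggregation, and 4 of 7 were higher and 1 lower. Hspb1 was 126, 152 and 106 CPM in IP and 0.288, 2.22, 2.05 and 2.49 CPM in unbound, with a log2 fold change of 6.19 ± 0.59. Cryab, the chaperone alpha-B-crystallin, was 181, 204 and 262 CPM in IP and 211, 626, 412 and 422 CPM in unbound. The groups overlapped and its log2 fold change of -0.95 ± 0.34 (edgeR adjusted p = 0.0483) lost the call without any of IP 1, 2 and 4 and unbound 2, 3 and 4.

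Of 13 kinases and phosphatase subunits acting on filaments, 4 were higher and 4 lower. Rock1, a kinase that phosphorylates vimentin and GFAP, had a log2 fold change of 1.96 ± 0.22. Pak1, the most abundant of the list, had -1.39 ± 0.31, and Cdk5, which phosphorylates neurofilament tails, had -1.37 ± 0.33. Cdk5 lost its call within the first index set (edgeR adjusted p = 0.0698). Of 7 genes of filament turnover 3 were higher and 1 lower. Casp6, a caspase that cleaves filament proteins, had 3.58 ± 0.36. Trim2, a ubiquitin ligase of the neurofilament light chain, had -1.42 ± 0.40. Its call was lost without IP 1 or IP 2 and within the first index set. Of 7 genes of neurofilament transport 3 were lower, among them Dync1i1 (-2.11 ± 0.29) and Kif5a (-1.24 ± 0.27), a motor for neurofilaments. Kif5a lost its call within the first index set (edgeR adjusted p = 0.0576).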

How the data were processed

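For 3 IP and 4 unbound libraries, the authors deposited raw read counts, in whole numbers, by gene symbol. Per the submitters' processing notes, reads were aligned to mm10 with STAR 2.0.0e and HTSeq was used. No source used here gives the annotation or strand setting, so overlapping and antisense genes are uncertain. The 6 rows that name no gene were left out.

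Group differences were fitted with edgeR 4.0.16 in R 4.3.3 (filterByExpr, 17654 genes, TMM, robust quasi-likelihood test, 2-sided, Benjamini-Hochberg at 0.05). CPM uses the TMM-scaled library size. Standard errors are the log2 fold change over the square root of the F statistic. Ratios used an exact permutation test over 35 arrangements, adjusted over 18 ratios, and 0.01 CPM was added to list members before their geometric mean. Every pair of replicates differed by more than sampling noise. The tests were checked on simulated data.

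The genes, lists and ratios were chosen with earlier results of these data known. Named were the 10 genes, the smallest p and most abundant member of each list, and the 3 genes nearest to each of the 10 by root mean square difference of centred log2 CPM (0.5 CPM added, mean of at least 5 CPM). Alternatives were RLE or no scaling, other filters, DESeq2 1.42.0, limma 3.58.1 (voom), the replicate block, dropping the 10 most abundant genes, the index sequence as a covariate or a split, and dropping each library. The test of the second index set against the first and the Hox list were chosen after seeing the data.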

Additional observations from a re-analysis of the deposited data

Results flagged for a closer look

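In 3 cases 1 unbound library stood apart from the other unbound libraries by Dixon's test, among 28 tested groups of values, and such a test flags about 1 in 20 groups by chance. Des was highest in unbound 1, at 3.71 CPM against 0.671 to 0.930 CPM in the others. Ina was lowest in unbound 2, at 158 CPM against 297 to 318 CPM. The log2 ratio of Ina to the pan-neuronal markers was likewise lowest in unbound 2, at -1.96. The last 2 share the same Ina value.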

How the results depend on the processing

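Over 19 alternatives 4 or 5 of the 10 genes were higher in IP and 4 or 5 lower, and no gene changed direction. Gfap, Vim, Des, Nes, Nefl, Nefh, Ina and Prph kept their calls in all 19, of which the fit within the second index set has 1 IP library and is no check by replicates. Nefm lost its call in 5, and Synm gained one in 4. Leaving out 1 library gave 4 to 5 higher and 4 to 5 lower. Ratios kept 0 calls with summed lists and could not pass with a library left out. The smallest possible exact p, 0.0286, passes adjustment over 18 ratios only if many of them reach it. Keeping 0 calls is therefore no sign of stability. With summed lists the log2 difference of Vim over endothelial markers moved from -2.01 to -0.88 and that of Nes from -1.51 to -0.37. Without scaling factors the median log2 fold change of all genes was 0.01 rather than -0.10. With all genes counted, 3622 were higher and 3328 lower, against 2915 and 1899 without IP 1, 2796 and 1751 without IP 2, and 2190 and 1650 within the first index set. The test of the second index set against the first called 0 genes in edgeR and 200 higher and 141 lower in DESeq2. Among the lists, the other filament genes had 3 lower and 1 without IP 1, IP 2 or unbound 3 or with the block, and 2 higher and 4 within the second index set. Anchors had 2 lower, 4 in DESeq2 and 5 without unbound 2. Transport genes had 3 lower and 5 without unbound 2, and kinases 4 higher and 2 within the first index set.

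With the replicate block, 4 of the 10 genes were higher and 5 lower, both with replicates 1, 2 and 4 and with all 7 libraries. Deviations of same-numbered libraries correlated at -0.053, 0.060 and 0.240 for replicates 1, 2 and 4. IP 2 and IP 4 correlated best with the unbound library of the same number, and IP 1 with unbound 2 (0.309). So few libraries, which also differ by index set, cannot show whether a number marks shared animals. Over all genes the block called 3153 higher and 2530 lower with replicates 1, 2 and 4.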

Other observations

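The genes closest to each filament gene over the 7 libraries were found by the root mean square difference of log2 CPM centred on its mean, among 11603 genes. Ina had the closest match, Zfp711 at 0.0589, followed by the motor gene Kif5c at 0.0899. For Gfap the closest genes were Zfp362 (0.0769), Lix1l and Sept9. Vim was closest to Dab2 (0.164), B2m and Tbxa2r. Tbxa2r was at 0 to 0.282 CPM in unbound, below the 0.5 CPM added before the log. Its log2 fold change was 7.14 against 4.69 for Vim, so its closeness depends on that addition. Nefh was closest to Glra1 (0.163), a glycine receptor subunit, then Chrm2 and St18, and Nefm to Creb5 (0.169), Pcdh9 and Hapln1. Nefl was closest to Tspan2 (0.220), Fa2h and Atp1b1, and Prph to Pcdh15 (0.201), Cabp7 and Sptbn4. Synm was closest to Dcun1d3 (0.105), Usp54 and AB335951.

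Des was closest to Lrp5 (0.216), Osmr and Tlr7, and Nes to Phldb2 (0.274), Atp10a and Osmr. Each of these was highest of the unbound libraries in unbound 1, as Des and Nes were. Lrp5 was 6.18 CPM in unbound 1 and 1.68 to 2.22 CPM in the other unbound libraries, and Phldb2 was 19.2 CPM against 2.75 to 6.92 CPM. Closeness was measured on the same values, so this shared order is a description. In unbound 2, Nes was at 0.395, Osmr at 0.481 and Tlr7 at 0.223 CPM, below the 0.5 CPM added before the log. The matches that involve them therefore also depend on that addition.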
